A study of Mus musculus with 13 samples.

Results

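Proprioceptors (pSNs) are the sensory neurons of the dorsal root ganglia (DRG) that innervate muscle spindles and Golgi tendon organs and report muscle length and load. At p12, a stage at which mice walk, the study placed most of its pSNs in 2 large clusters, numbered 1 and 4. They are compared here, 63 neurons of cluster 1 with 58 neurons of cluster 4, or 121 of the 154 neurons kept at p12 and of 586 kept at all stages. The neurons came from DRG of *PV:Cre+/-;Rx3:Flp+/-;Ai65+/-* mice, in which a cell turns on tdTomato once *PV* (*Pvalb*, the calcium buffer parvalbumin) and *Rx3* (*Runx3*) have each been active in it, so cells that expressed either gene only earlier are included. They were sorted 1 per well and sequenced by Plate-seq, and the values are counts of Unique Molecular Identifiers (UMIs), each standing for 1 captured transcript. Every member came from p12 replicates 3 and 4, each 1 plate of 96 wells, with 22 and 41 neurons of cluster 1 and 39 and 19 of cluster 4. Both groups thus share genotype, age, reporter and plates. At p12, 4 mice of either sex were used, but the sources do not say which mice filled which plate, so the 2 plates may hold neurons of the same animals. The p-values do not measure the spread between animals. They rest on how the cluster difference varied between the 2 plates, with a spread largely shared over all genes.

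The cluster numbers are those the authors deposited, drawn from the expression of these same neurons. A gene that separates the clusters may therefore have been part of their definition, and which genes were used was not traced here. The tests below describe how far 2 plates repeat the split and are not independent evidence for it. The rule used cluster number and plate and no threshold.

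Muscle afferents fall into known types. Group Ia and group II afferents end in spindles, group Ib afferents in tendon organs. Large, fast afferents carry much neurofilament, the intermediate filament that fills thick axons, and fire at high rates with the help of fast potassium channels. Tachykinin 1 (*Tac1*) encodes substance P, a peptide best known from pain-sensing neurons, and the study used it as a marker of presumed group II neurons in the adult. A *Tac1* reporter in the study also labelled some group Ia endings and some tendon organ endings. The study proposes that some labelled spindle afferents, group Ia ones included, may reflect earlier, transient *Tac1* activity. Its antibody counts at p12 found substance P in a minority of pSNs, a protein measure unlike the RNA shares below.

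Both clusters carried the proprioceptor markers, and 4 defining nociceptor genes were at or near 0. *Pvalb* had at least 1 UMI in all 121 neurons, with 3342 and 3335 CPM (a gene's UMIs scaled to a common library total) in the cluster 1 sums of replicates 3 and 4 and 3399 and 3310 CPM in the cluster 4 sums. The 4 values lay close together, and the log2 difference (cluster 4 minus cluster 1) was -0.02 ± 0.04 (SE). *Calca*, *Scn10a* and *P2rx3*, defining nociceptor genes, had no UMI in any of these neurons, and *Trpv1* had 1. *Th*, a marker of C-fibre low-threshold mechanoreceptors, had none, and *Ntrk2* had 2 UMIs in cluster 1 and 5 in cluster 4. Of the glial markers, *Fabp7* had 14.0 and 80.7 CPM in cluster 1 and 34.9 and 41.6 CPM in cluster 4, and *Mbp* had 27.9 and 25.4 CPM against 18.7 and 9.99 CPM. *Mbp* was lower in cluster 4 on both plates, *Fabp7* changed order between the plates, and *Apoe* was higher in cluster 4 on both (53.1 and 122 against 86.0 and 228 CPM).

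Cluster 4 neurons yielded more UMIs than cluster 1 neurons. The median depth was 16393 and 15921 UMIs in cluster 1 on replicates 3 and 4, and 29509 and 30386 UMIs in cluster 4, a ratio of 1.80 and 1.91. The ranges overlapped in part. On replicate 3, 8 of 22 cluster 1 neurons reached the shallowest cluster 4 neuron (18493 UMIs) and 2 of 39 cluster 4 neurons lay at or below the deepest cluster 1 neuron (21532 UMIs). On replicate 4 these numbers were 3 of 41 (22685 UMIs) and 7 of 19 (27177 UMIs). The number of genes detected followed depth. Its median was 4349 and 4106 genes in cluster 1 against 5757 and 5730 in cluster 4, but 3271 and 3227 against 3298 and 3266 once each neuron was thinned at random to 10000 UMIs, which left out 1 shallower cluster 1 neuron per plate. At equal depth the medians thus differed by under 50 genes. Captured RNA and RNA content per neuron cannot be told apart in these counts, and depth moves with every difference described below.

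**Figure D1:**
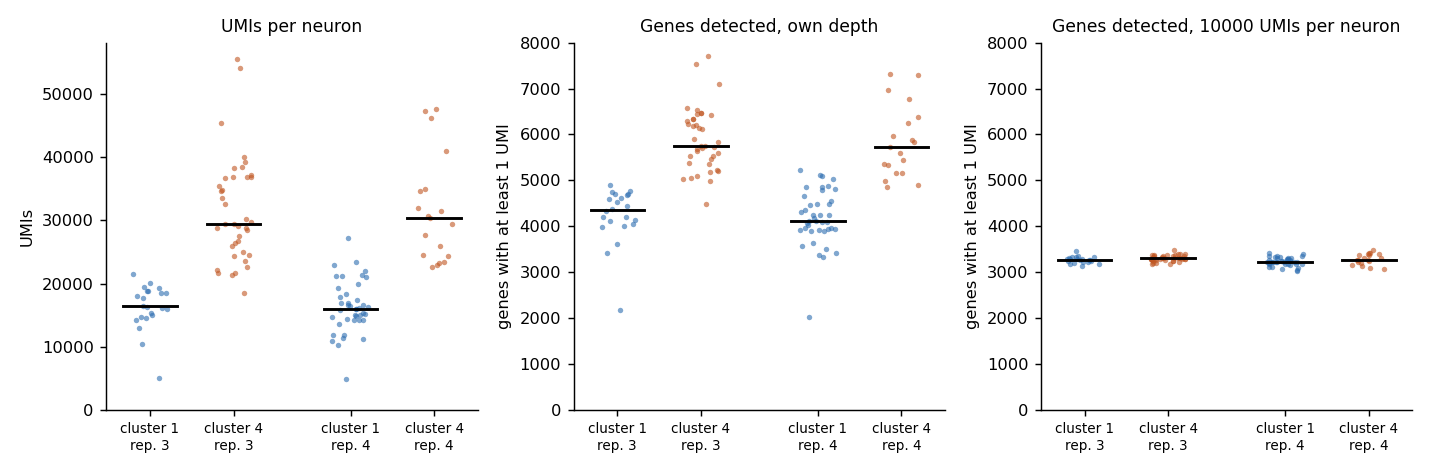
UMIs per neuron (left), genes with at least 1 UMI at each neuron's own depth (middle) and after thinning to 10000 UMIs (right), for clusters 1 and 4 on p12 replicates 3 and 4. Each point is 1 neuron and each line a median. Medians of 16393 and 15921 against 29509 and 30386 UMIs separate the clusters on both plates, whereas the thinned gene counts lie between 3227 and 3298.

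For the comparison, UMIs were summed over the neurons of 1 cluster on 1 plate and the 4 sums were fitted with edgeR, with the plate as a block. Of 6525 genes tested, 343 (5.26%) were called at an adjusted p under 0.05, 144 (2.21%) higher in cluster 4 and 199 (3.05%) higher in cluster 1. All 343 differed in the same direction on both plates, as did 61.8% of all tested genes. The size of the list depended on the method. DESeq2 called 25 genes, all among the 343. Without replicate 3 there were 64 calls, 55 of them among the 343, and without replicate 4 there were 31, 27 of them among the 343. Thinning to 10000 UMIs gave 193, of which 162 were among the 343. The genes are therefore graded here by how many of 11 alternative analyses kept their call. Only 5 genes kept it in all 11, namely *Nefh*, *Tac1*, *Lxn*, *Tmem176b* and *Rhoc*. Of these, *Lxn* lies outside the naming rule and was singled out after its values were seen.

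The 3 neurofilament subunits were all higher in cluster 4, by 2.08-fold (*Nefh*), 1.96-fold (*Nefl*) and 1.80-fold (*Nefm*). *Nefh*, the heavy subunit (chr11:4938754-4948064, GRCm38), stood at 1269 and 1291 CPM in cluster 1 and at 2496 and 2878 CPM in cluster 4. *Nefl*, the light subunit (chr14:68083863-68089095), held 1965 and 2224 CPM in cluster 1 against 3821 and 4493 CPM in cluster 4. *Nefm*, the medium subunit encoded next to it (chr14:68119545-68125004), held 3463 and 3692 CPM against 6311 and 6767 CPM. Both cluster 4 sums were above both cluster 1 sums for each subunit. The log2 differences were 1.05 ± 0.05 for *Nefh* (adjusted p = 2.01e-08), 0.97 ± 0.04 for *Nefl* (adjusted p = 3.40e-09) and 0.85 ± 0.04 for *Nefm* (adjusted p = 3.40e-09).

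Single neurons overlapped in neurofilament level, and the level followed depth within cluster 4. The sum of the 3 subunits had a median of 6269 CPM (3857 to 11167) in cluster 1 and 10622 CPM (5625 to 26782) in cluster 4 on replicate 3. On replicate 4 the medians were 6981 CPM (3513 to 15377) and 13796 CPM (6755 to 21719). On replicate 3, 35 of 39 cluster 4 neurons lay above the cluster 1 median and 17 above its highest neuron, and on replicate 4, 18 and 7 of 19 did. At a fixed 10000 UMIs per neuron, Spearman's rho of the neurofilament count with the neuron's own depth was 0.66 and 0.65 across the 39 and 19 neurons of cluster 4, and 0.04 and 0.19 across 21 and 40 neurons of cluster 1. Neurons of a plate share 1 library, and these values are descriptions.

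Among neurons with 18000 to 28000 UMIs, 9 and 11 of cluster 1 and 14 and 8 of cluster 4, the neurofilament difference was smaller. The median sum was 6548 and 7063 CPM in cluster 1 and 8945 and 10111 CPM in cluster 4. In this depth window the log2 difference of *Nefh* was 0.70 (adjusted p = 5.09e-07), that of *Nefl* 0.33 (adjusted p = 0.0847) and that of *Nefm* 0.37 (adjusted p = 0.0502). The calls for *Nefl* and *Nefm* were thus lost, although thinning to 10000 UMIs, which gives each neuron the same weight and left out 1 cluster 1 neuron per plate, gave 0.86 and 0.71. Adjusted p-values in this window come from a fit that shares nearly 1 spread over all genes and are small for well-counted ones. Depth still differed inside the window, with medians of 18748 and 21193 UMIs in cluster 1 against 23981 and 23836 UMIs in cluster 4.

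**Figure D2:**
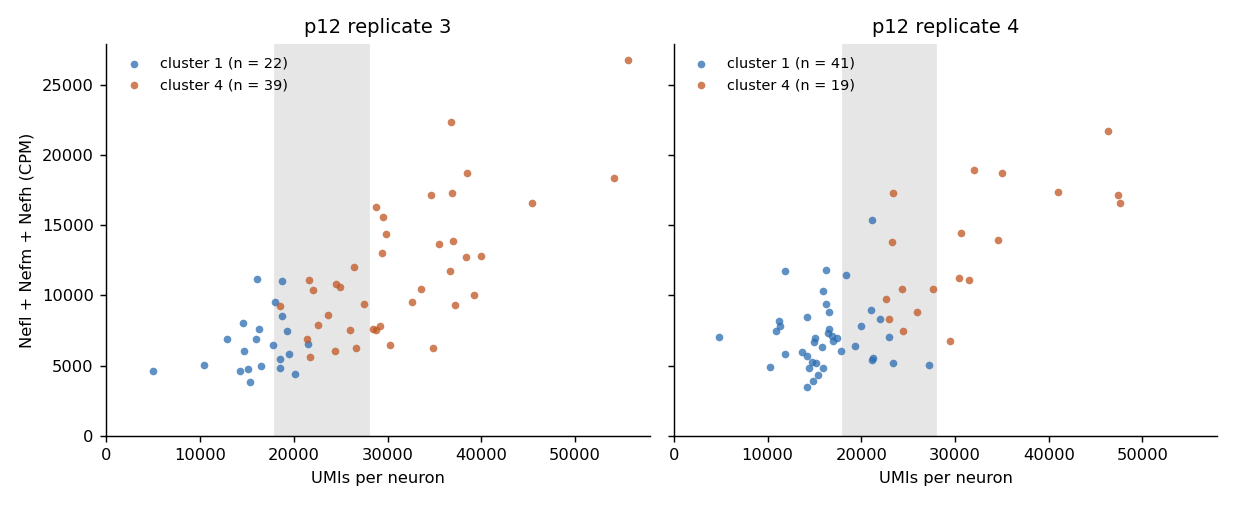
Summed level of Nefl, Nefm and Nefh (CPM) against depth (UMIs) of each neuron of cluster 1 and cluster 4 on p12 replicates 3 and 4; the grey band is the window of 18000 to 28000 UMIs. Cluster 4 neurons spread upwards with depth (rho 0.66 and 0.65), and the clusters overlap inside the band.

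Of the other intermediate filaments, *Ina* (internexin) was higher in cluster 4 and *Prph* (peripherin, a filament typical of thin fibres) was slightly lower. *Ina* had 358 and 339 CPM in cluster 1 and 502 and 548 CPM in cluster 4 (log2 difference 0.58 ± 0.10, adjusted p = 0.00269). *Prph* had 1174 and 1122 CPM against 1001 and 984 CPM (-0.23 ± 0.06, adjusted p = 0.0335), a call kept in 1 of 11 alternatives. All 5 filament genes tested were thus called, 4 of them higher in cluster 4 (2.21% of all genes) and 1 higher in cluster 1 (3.05%), with a median log2 difference of 0.85 beside 0.01 over all genes tested.

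The strongest genes of cluster 1 were *Tac1*, *Lxn*, *Tmem176b* and *Rhoc*. *Tac1* (chr6:7555061-7562978) had 338 and 264 CPM in cluster 1 and 77.0 and 18.3 CPM in cluster 4. The log2 difference was -2.58 ± 0.24 (adjusted p = 1.79e-05), and it was -2.11 on replicate 3 and -3.69 on replicate 4. The plate sums of the clusters did not overlap, but the cluster 4 sums differed widely from each other, and without replicate 3 the value was -3.89.

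*Tac1* did not divide the neurons cleanly. At least 1 UMI was present in 18 of 22 and 31 of 41 cluster 1 neurons, together 77.8% (exact 95% interval 65.5 to 87.3), and in 23 of 39 and 5 of 19 cluster 4 neurons, together 48.3% (35.0 to 61.8). After thinning to 10000 UMIs the shares were 72.1% of 61 and 25.9% of 58 neurons. On replicate 3, 3 cluster 4 neurons held 46 of the 95 *Tac1* UMIs of their cluster. In the 8 neurons of p12 cluster 5 on the same plates, which were deeper (medians of 52717 and 39270 UMIs), no *Tac1* UMI was found, which allows up to 37.5% of neurons with a UMI (a limit of 3 counts, not an exact interval). These intervals and limits cover counting error only. In the depth window the *Tac1* difference was -1.73 (adjusted p = 0.000201), and the median *Tac1* level of single neurons was 54.0 against 39.8 CPM on replicate 3 and 54.4 against 0 CPM on replicate 4. Within cluster 1, Spearman's rho of the thinned *Tac1* count with depth was -0.33 and -0.29 across 21 and 40 neurons.

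*Lxn* encodes latexin, an inhibitor of carboxypeptidases (chr3:67457999-67463907). It had 1322 and 1110 CPM in cluster 1 and 455 and 186 CPM in cluster 4 (log2 difference -1.92 ± 0.15, adjusted p = 2.57e-06). On replicate 3 the neurons ran from 123 to 3596 CPM with a median of 1244 in cluster 1 and from 0 to 1904 CPM with a median of 364 in cluster 4. Only 2 of 39 and 1 of 19 cluster 4 neurons exceeded the cluster 1 median of their plate. In the depth window the difference was -1.36 (adjusted p = 7.03e-17). The median *Lxn* level of single neurons there was 747 against 649 CPM on replicate 3 and 1069 against 224 CPM on replicate 4, so that it was close between clusters on 1 plate.

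*Tmem176b* and *Tmem176a* encode related membrane proteins and overlap on chromosome 6 (48833811-48845948 and 48841483-48845364), so reads could be shared between them. *Tmem176b* had 333 and 197 CPM in cluster 1 against 57.6 and 28.3 CPM in cluster 4 (log2 difference -2.62 ± 0.18, adjusted p = 8.55e-07). *Tmem176a* had 112 and 65.7 CPM against 27.6 and 11.7 CPM (-2.17 ± 0.27, adjusted p = 0.000378), and its call held in all 10 alternatives that tested it. *Rhoc*, a small GTPase, had 129 and 85.1 CPM against 24.3 and 9.99 CPM (-2.60 ± 0.27, adjusted p = 6.22e-05). For each of the 3 genes both cluster 1 sums exceeded both cluster 4 sums.

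**Figure D3:**
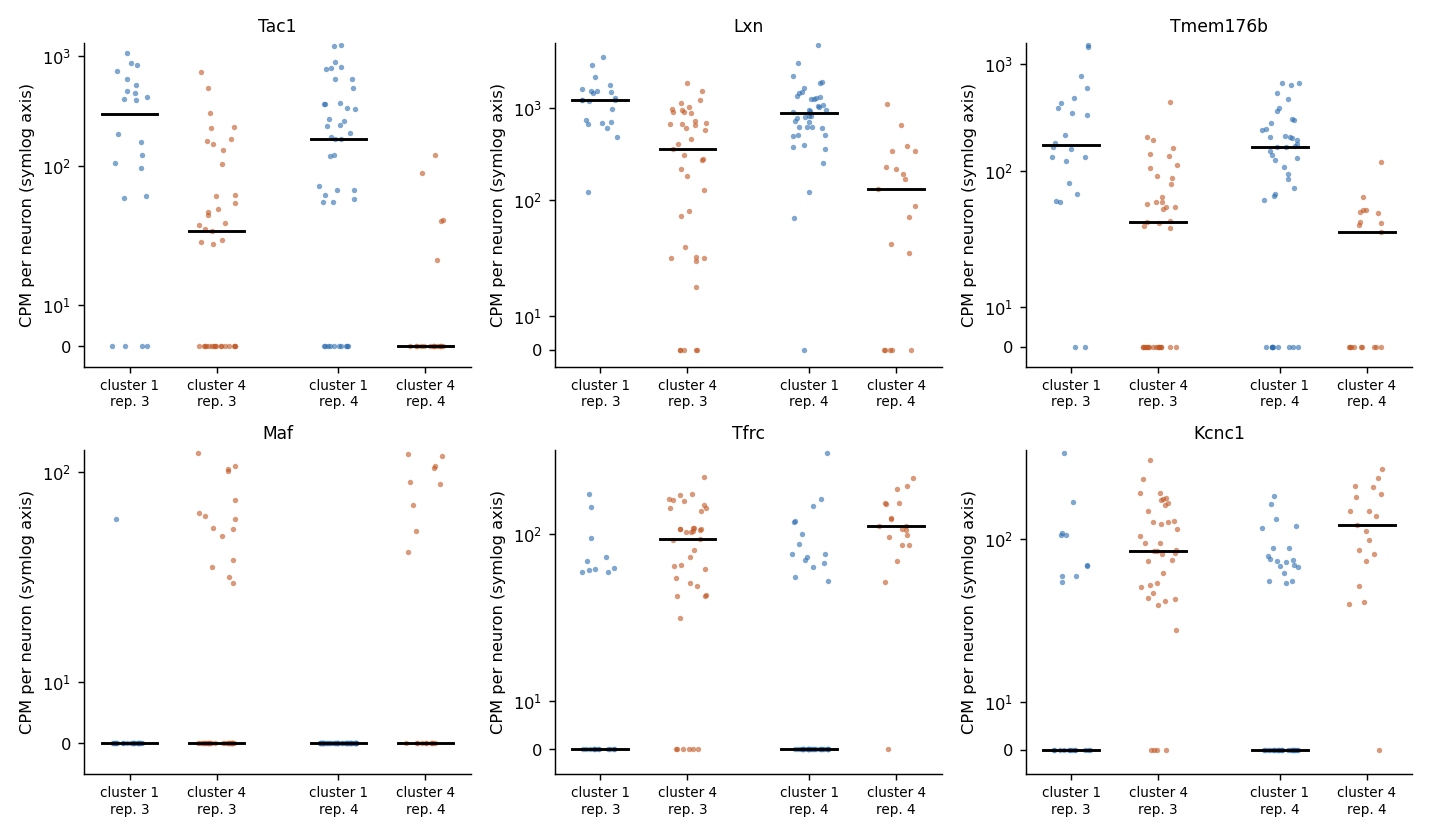
Level of 6 genes in each neuron (CPM, on an axis that is linear near 0 and logarithmic above) in clusters 1 and 4 on p12 replicates 3 and 4, with medians as lines. Tac1, Lxn and Tmem176b are higher in cluster 1 and Maf, Tfrc and Kcnc1 in cluster 4, with overlap between single neurons.

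The other large differences towards cluster 1 lay in genes of low level. *Nsg2*, a neuronal vesicle protein, had 64.3 and 53.8 CPM in cluster 1 and 10.5 and 13.3 CPM in cluster 4 (log2 difference -2.36 ± 0.35, adjusted p = 0.0011), a call kept in 6 of 10 alternatives. *Ly6h*, a membrane-anchored protein that binds nicotinic receptors, had 50.3 and 32.9 CPM against 13.0 and 4.99 CPM. *Ntng1* (netrin G1, an axonal adhesion protein) had 33.5 and 46.3 CPM against 13.0 and 3.33 CPM. *Lgr6*, *Qpct*, *Rprm*, *Abcg2* and *Tspan8* had at most 36.3 CPM in cluster 1 and 11.7 CPM in cluster 4, with log2 differences between -2.69 and -2.33. Each of these 8 genes lost its call in at least 1 alternative.

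*Maf*, a transcription factor of mechanosensory neurons, was higher in cluster 4 than in cluster 1, where it was nearly undetected. It had 1 and 0 UMIs in the cluster 1 sums and 35 and 27 UMIs in the cluster 4 sums, which is 28.4 and 44.9 CPM in cluster 4. In CPM over both plates the ratio was 34.7, with an exact 95% counting interval of 6.01 to 1394 (adjusted p = 0.00137). The call was kept in 5 of 6 alternatives and lost without replicate 4 (adjusted p = 0.215). A *Maf* UMI was found in 15 of 39 and 9 of 19 cluster 4 neurons, together 41.4%, and in 1 of 63 cluster 1 neurons. After thinning to 10000 UMIs these shares were 24.1% and 1.64%. *Ret*, another mechanoreceptor marker, had 2.79 and 2.99 CPM in cluster 1 (1 and 2 UMIs) and 4.87 and 11.7 CPM in cluster 4 (6 and 7 UMIs).

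*Tfrc*, the transferrin receptor for iron uptake, was the best detected of the other leading genes of cluster 4. It had 36.3 and 32.9 CPM in cluster 1 and 98.1 and 132 CPM in cluster 4 (log2 difference 1.75 ± 0.24, adjusted p = 0.000662). A UMI was present in 25 of 63 neurons of cluster 1 and 51 of 58 of cluster 4, and after thinning in 21.3% and 63.8%. The call was kept in 7 of 11 alternatives and lost, among others, in the depth window (log2 difference 1.06, adjusted p = 0.338) and without replicate 4 (adjusted p = 0.237).

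Several scarcer genes had a larger difference than *Tfrc*. *Tesc*, a calcium-binding protein, had 8.38 and 8.96 CPM in cluster 1 and 34.9 and 53.3 CPM in cluster 4. *Tuba8*, an alpha tubulin, had 11.2 and 13.4 CPM against 64.1 and 46.6 CPM. *Esrrg*, an orphan nuclear receptor that regulates oxidative metabolism, had 0 and 19.4 CPM against 43.0 and 56.6 CPM. The linker histone *Hist1h1c*, one of a family of near-identical genes whose reads can be split, had 8.38 and 19.4 CPM against 56.8 and 54.9 CPM. *Dapk2*, *Shroom3* and *Arhgef3* were called as well, with at most 16.4 CPM in cluster 1 and 51.6 CPM in cluster 4. *Rabggta* and *Lmcd1* had 2 and 3 UMIs in all of cluster 1, and their ratios in CPM were 12.0 (3.14 to 103) and 7.10 (2.25 to 35.9). No call in this paragraph was kept in every alternative.

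*Cartpt*, which encodes the CART peptide, was carried by few neurons. Its sums held 1 and 31 UMIs in cluster 1 and 356 and 33 UMIs in cluster 4, and 3 neurons of replicate 3 held 293 of those 356 UMIs. The cluster difference rested on that plate. The log2 difference was 2.22 ± 0.54 (adjusted p = 0.027) with both plates and 0.19 (adjusted p = 0.978) without replicate 3.

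Of 10 identity genes of proprioceptors 1 was called, beside 5.26% of all genes. *Spp1* (osteopontin) had 182 and 363 CPM in cluster 1 and 469 and 546 CPM in cluster 4 (log2 difference 0.85 ± 0.14, adjusted p = 0.00223), and its call was lost without replicate 3 (log2 difference 0.53, adjusted p = 0.217), among neurons without an *Apoe* UMI and in DESeq2. *Ntrk3*, the neurotrophin 3 receptor, had 282 and 227 CPM against 305 and 326 CPM (0.30 ± 0.12, adjusted p = 0.202). *Runx3* had 22.4 and 17.9 CPM against 13.8 and 21.6 CPM, and *Etv1*, the transcription factor required in many pSNs, 372 and 396 CPM against 410 and 341 CPM. The values of *Whrn*, *Isl1*, *Pou4f1* and *Piezo2*, the mechanically gated channel, gave log2 differences between -0.40 and 0.42. *Slc17a7*, the vesicular glutamate transporter VGLUT1, had 53.1 and 61.2 CPM against 85.1 and 103 CPM, with 0.70 ± 0.21 and an adjusted p of 0.074.

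The lists of adult subtype markers follow the study's adult neurons, but its text does not name *Cpne4*, *Cartpt*, *Id3* or *Dcn* as adult subtype markers. Of 8 listed as group Ia markers, of which *Heg1* marks spindle afferents more widely in the study, 3 passed the filter on low counts. Neither edgeR nor DESeq2 called any of these 3, beside 5.26% and 0.38% of all genes, and 1 had an unadjusted p under 0.05. *Calb2* (calretinin) had no UMI in 63 cluster 1 neurons, which allows up to 4.76% of neurons with a UMI at this depth. In cluster 4 it had 20 UMIs in 6 of 58 neurons, at least 3.73-fold higher in CPM against a floor of 3 UMIs over the group, but 16 of these UMIs came from 2 neurons of replicate 3. All 8 neurons of p12 cluster 2 and all 8 of p12 cluster 5 had a *Calb2* UMI, with 1419 ± 372 and 478 ± 280 CPM (mean over neurons, SD over 2 plates). *Heg1* had 11.2 and 23.9 CPM against 35.7 and 48.3 CPM (log2 difference 1.19 ± 0.35, adjusted p = 0.0676), and *Calb1* and *Slc17a6* (VGLUT2) had at most 27.9 CPM in any sum. *Hpse*, *Colq*, *Agpat4* and *Cpne4* had at most 4.48 CPM. Of 10 group Ib markers *Id3* alone was tested, and neither tool called it (0.15 ± 0.67, unadjusted p over 0.05), beside the same shares of all genes. *Pou4f3* had 11.2 and 0 CPM against 0 and 16.6 CPM. *Pcdh8*, *Pcdh17*, *Itga2*, *Chad*, *Npy1r*, *Grin3a* and *Dcn* reached at most 33.5 CPM in any sum.

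The presumed group II markers did not move together. Of 6 present in the files, 5 were tested, of which 3 were called higher in cluster 1 and 1 higher in cluster 4 (3.05% and 2.21% of all genes). Besides *Tac1* and, in the other direction, *Cartpt*, these were *Cdh13* (T-cadherin) with 75.5 and 47.8 CPM in cluster 1 and 38.9 and 13.3 CPM in cluster 4 (log2 difference -1.25 ± 0.30, adjusted p = 0.0252) and *Kcnip2*, a Kv4 channel partner, with 207 and 190 CPM against 135 and 132 CPM (-0.59 ± 0.15, adjusted p = 0.0294). The *Cdh13* call was kept in 4 of 9 alternatives and that of *Kcnip2* in 1 of 11. *Nxph1* (neurexophilin 1) had 47.5 and 38.8 CPM against 60.8 and 59.9 CPM and was not called. *Fam196a* was below the filter, with at most 16.8 CPM.

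Of 27 potassium channel genes tested, 5 were called higher in cluster 4 and 2 higher in cluster 1 (2.21% and 3.05% of all genes), with a median log2 difference of 0.30 beside 0.01 over all genes tested. *Kcnc1* (Kv3.1, which speeds repolarisation in fast-firing neurons) had 53.1 and 43.3 CPM in cluster 1 and 109 and 153 CPM in cluster 4 (log2 difference 1.48 ± 0.23, adjusted p = 0.00178). A *Kcnc1* UMI was found in 29 of 63 and 53 of 58 neurons, and after thinning in 29.5% and 60.3%. *Kcna1* and *Kcna2* (Kv1.1 and Kv1.2, low-threshold channels that limit repetitive firing) had log2 differences of 0.82 ± 0.22 and 0.65 ± 0.16. *Kcnh2* (1.01 ± 0.22) and *Kcns1* (0.79 ± 0.21) were higher in cluster 4 as well, and *Kcna6* (Kv1.6) was lower (-0.87 ± 0.23). The *Kcnc1* call was kept in 7 of 11 alternatives and that of *Kcnh2* in 4 of 11, and both were lost without replicate 4 (adjusted p = 0.502 and 0.92). The calls of *Kcns1* and *Kcna6* were kept in none of their alternatives, that of *Kcna1* in 1 of 11 and that of *Kcna2* in 3 of 11.

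Of 12 sodium channel genes tested 2 were called in each direction, beside 2.21% and 3.05% of all genes higher in cluster 4 and cluster 1. *Scn9a* (Nav1.7, a channel that amplifies slow depolarisations) had 285 and 187 CPM in cluster 1 and 127 and 79.9 CPM in cluster 4 (log2 difference -1.21 ± 0.15, adjusted p = 0.000296). Its call was kept in 9 of 11 alternatives, the depth window among them (-1.12, adjusted p = 0.00339). *Fgf13*, a cytosolic partner of sodium channels, had 299 and 243 CPM against 162 and 118 CPM (-0.97 ± 0.13, adjusted p = 0.000662). *Scn8a* (Nav1.6, the channel of nodes of Ranvier) was higher in cluster 4, with 120 and 134 CPM against 171 and 208 CPM (0.56 ± 0.15, adjusted p = 0.0475), a call kept in none of 11 alternatives.

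**Figure D4:**
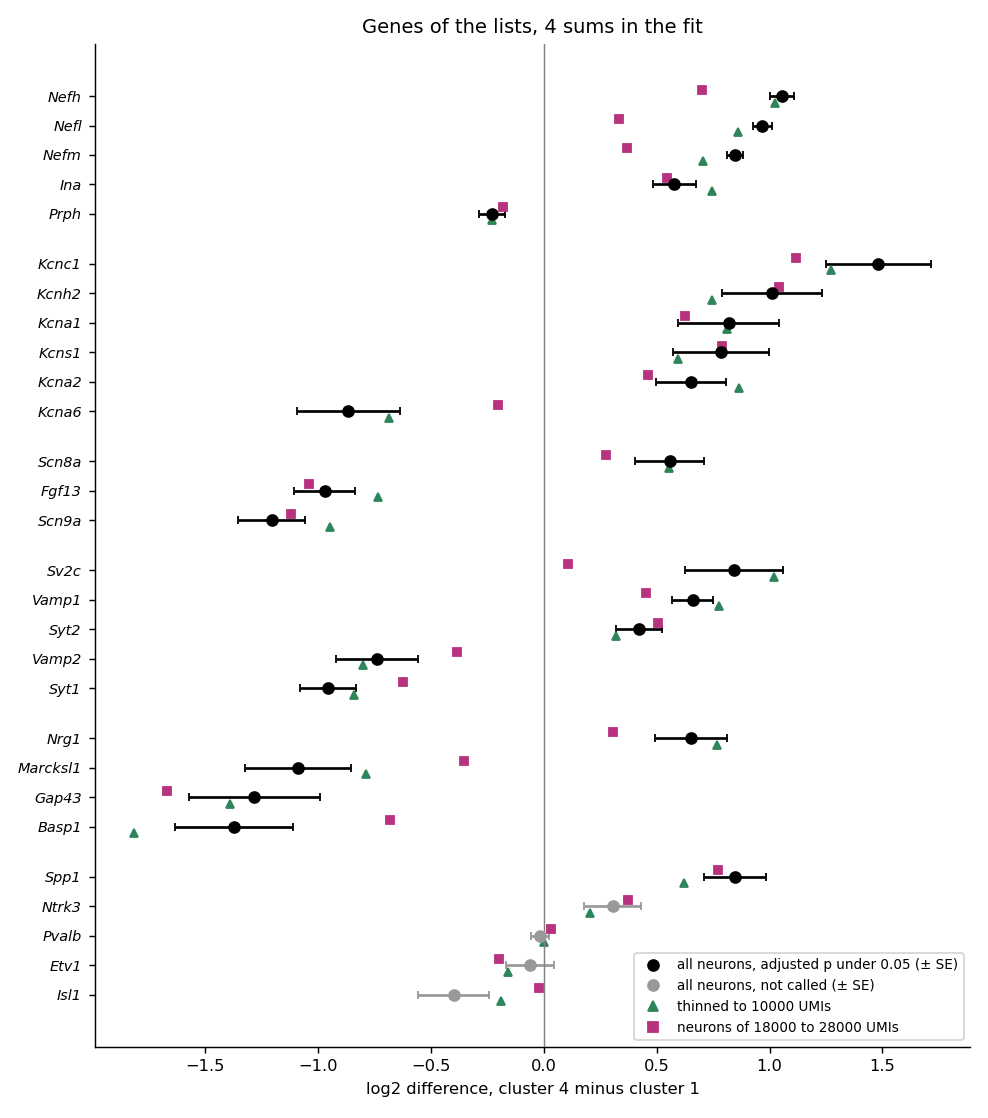
Log2 difference (cluster 4 minus cluster 1) of genes from the lists, grouped as filaments, potassium channels, sodium channels, vesicle genes, axon growth and contact genes, and identity genes. Circles with SE are from all neurons (black where called, grey where not), triangles from neurons thinned to 10000 UMIs and squares from neurons of 18000 to 28000 UMIs; Nefl and Nefm move from 0.97 and 0.85 to 0.33 and 0.37 in the depth window while Scn9a stays near its value.

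Of 19 vesicle genes tested 5 were called, 3 higher in cluster 4 and 2 higher in cluster 1 (2.21% and 3.05% of all genes). *Vamp1*, a vesicle fusion protein, had 330 and 438 CPM in cluster 1 and 568 and 668 CPM in cluster 4 (log2 difference 0.66 ± 0.09, adjusted p = 0.000572), whereas its paralog *Vamp2* had 148 and 131 CPM against 94.9 and 74.9 CPM (-0.74 ± 0.18, adjusted p = 0.0272). Likewise *Syt2*, a fast calcium sensor of release, had 305 and 302 CPM against 391 and 431 CPM (0.42 ± 0.10, adjusted p = 0.027), and *Syt1* had 374 and 263 CPM against 207 and 127 CPM (-0.96 ± 0.12, adjusted p = 0.000443). *Sv2c* was also higher in cluster 4 (0.84 ± 0.22). The calls held in 6 (*Vamp1*), 1 (*Vamp2*), 3 (*Syt2*) and 8 (*Syt1*) of 11 alternatives, so that in neither pair were both members called in most of them.

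Of 18 axon growth and contact genes tested, 3 were called higher in cluster 1 and 1 higher in cluster 4 (3.05% and 2.21% of all genes). *Gap43*, a growth cone protein, had 64.3 and 52.3 CPM in cluster 1 and 26.8 and 21.6 CPM in cluster 4 (log2 difference -1.28 ± 0.29, adjusted p = 0.0182). *Basp1* and *Marcksl1*, membrane proteins of growing processes, differed by -1.37 ± 0.26 and -1.09 ± 0.23. *Nrg1*, the axonal signal for myelination, had 137 and 196 CPM against 294 and 251 CPM (0.65 ± 0.16, adjusted p = 0.027). Of 18 genes tested in this list 14 were not called, and its median log2 difference was 0.03. The growth genes kept their calls in 4 to 6 alternatives of 10 or 11 each.

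Of 80 nuclear subunits of oxidative phosphorylation, 11 were called higher in cluster 1 and 3 higher in cluster 4 (3.05% and 2.21% over all genes), with a median log2 difference of 0.00. *Cox4i1* had 5044 and 5028 CPM in cluster 1 and 4330 and 4317 CPM in cluster 4 (-0.24 ± 0.04), and the values of *Cox6c* (-0.25) and *Atp5o* (-0.23) were as small. *Ndufb7* had 0.21 in the other direction. The calls of *Cox4i1*, *Cox6c* and *Atp5o* were each kept in 2 of 11 alternatives, and the value of *Atp5o* turned to 0.05 in the depth window (adjusted p = 0.935). DESeq2 called 0 of the 80 subunits, beside 0.38% of all genes. Of 57 ribosomal proteins 2 were called (*Rps14* and *Rpl4*, both higher in cluster 1, with calls kept in 2 and 0 of 11 alternatives), and of 14 mitochondrially encoded genes 1 (*mt-Nd6*, 0.28), each beside 5.26% of all genes.

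Neither edgeR nor DESeq2 called any of 5 calcium channel genes (4 at an unadjusted p under 0.05), 10 GABA-A, glutamate and nicotinic receptor subunits (0), 2 neurotrophin receptors (1) and 2 Hox genes (1) tested, beside 5.26% and 0.38% of all genes. *Maf* was the only edgeR call among 13 sensory transcription factors (5.26% of all genes). None of 12 cutaneous and nociceptive or 14 vessel, fibroblast, macrophage and blood genes passed the filter, and their summed levels were 0 to 8.92 CPM and 2.79 to 6.66 CPM. Of 7 satellite glia and Schwann cell genes tested, 2 were called higher in cluster 4 and 1 higher in cluster 1 (2.21% and 3.05% of all genes). DESeq2 called 0 of the 7, beside 0.38% of all genes. *Apoe* had 53.1 and 122 CPM in cluster 1 against 86.0 and 228 CPM in cluster 4 (log2 difference 0.82 ± 0.18, adjusted p = 0.0146). *S100b*, which pSNs express too, had 2280 and 2527 CPM against 2963 and 3043 CPM (0.30 ± 0.04, adjusted p = 0.00126). *Pmp22* had 81.0 and 73.2 CPM against 36.5 and 25.0 CPM (-1.33 ± 0.25, adjusted p = 0.00697). Without the neurons that held an *Apoe* UMI, 14 and 32 cluster 1 and 25 and 10 cluster 4 neurons and 5083 tested genes remained, with 111 calls, 105 of them among the 343. The part of glial RNA in the other differences was not tested. Of 6 dissociation and injury genes *Jun* was called, beside 5.26% of all genes. It was higher in cluster 1 (-0.98 ± 0.26, adjusted p = 0.0442), a call kept in 1 of 11 alternatives. All 6 genes had values below 0, with a median log2 difference of -0.71 (-1.20 to -0.27), and the whole list of 15 genes summed to 279 and 261 CPM in cluster 1 and 213 and 176 CPM in cluster 4. Its part in the other differences was not tested.

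At other stages and in the other p12 clusters the 2 groups sat at different levels of the same genes. These levels are mean CPM over the neurons of a plate, then over plates (± SD). *Nefh* was 745 ± 73.1 CPM in p0 cluster 1 (n = 2 plates), 1286 ± 46.9 in p12 cluster 1 and 2544 ± 247 in p12 cluster 4 (n = 2 each). It was 5925 ± 362 in p12 cluster 2 and 5071 ± 1465 in p12 cluster 5, and between 2611 ± 245 (adult cluster 4, n = 2) and 6317 ± 941 (adult cluster 1, n = 5) in the adult. Cluster 1 thus had the lowest *Nefh* level of the 5 p12 clusters, and cluster 4 and cluster 3 (2724 ± 531) did not differ beyond their spread. Cluster 1 was also the shallowest. The median depth per plate was 83890 and 68443 UMIs in cluster 2, 48392 and 46055 in cluster 3 and 52717 and 39270 in cluster 5. The part of depth in this order was not tested. For *Nefl* the p0 cluster means (4059 to 6106 CPM) were above that of p12 cluster 1 (2048 ± 209), while p0 cluster 3 (4059 ± 1075) overlapped p12 cluster 4 (3864 ± 449).

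*Tac1* was 315 ± 45.5 CPM in p12 cluster 1 and 48.8 ± 46.8 in p12 cluster 4, beside 184 ± 23.7 in adult cluster 4, whose neurons the study presumes to be group II afferents, 23.8 ± 50.1 in adult cluster 5 and 9.44 CPM or less in adult clusters 1, 2 and 3. Its p0 means were 153 CPM in cluster 1, 10.9 in cluster 2 and 197 in cluster 3 (75.8 and 318 on the plates of cluster 3). *Lxn* was 1203 ± 201 CPM in p12 cluster 1 and 349 ± 197 in p12 cluster 4, and its highest adult level was again in adult cluster 4 (505 ± 52.3, n = 2). The p0 cluster means of *Lxn* were lower, at 52.8 to 85.9 CPM. *Maf* was 1.18 ± 1.67 CPM in p12 cluster 1 and 32.2 ± 12.3 in p12 cluster 4, while p12 clusters 2 and 5 had 269 ± 4.28 and 182 ± 52.7 CPM. In the adult it ran from 11.5 ± 0.54 (cluster 4) to 285 ± 122 (cluster 1), and at p0 from 29 to 110 CPM. *Tmem176b* had p0 means of 296 to 353 CPM, with 271 ± 110 in p12 cluster 1 and 41.8 ± 23.7 in p12 cluster 4. Its adult means were at most 15 CPM. *Scn9a* had p0 means of 266 to 292 CPM, with 241 ± 68.9 in p12 cluster 1 and 105 ± 38.6 in p12 cluster 4. Its adult means were at most 85.7 CPM. Whether p12 cluster 1 is nearer to p0 or to adult clusters was not tested. Clusters 2 and 3 at p12 lay on replicates 1 and 2 alone, so their cluster and plate cannot be told apart.

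**Figure D5:**
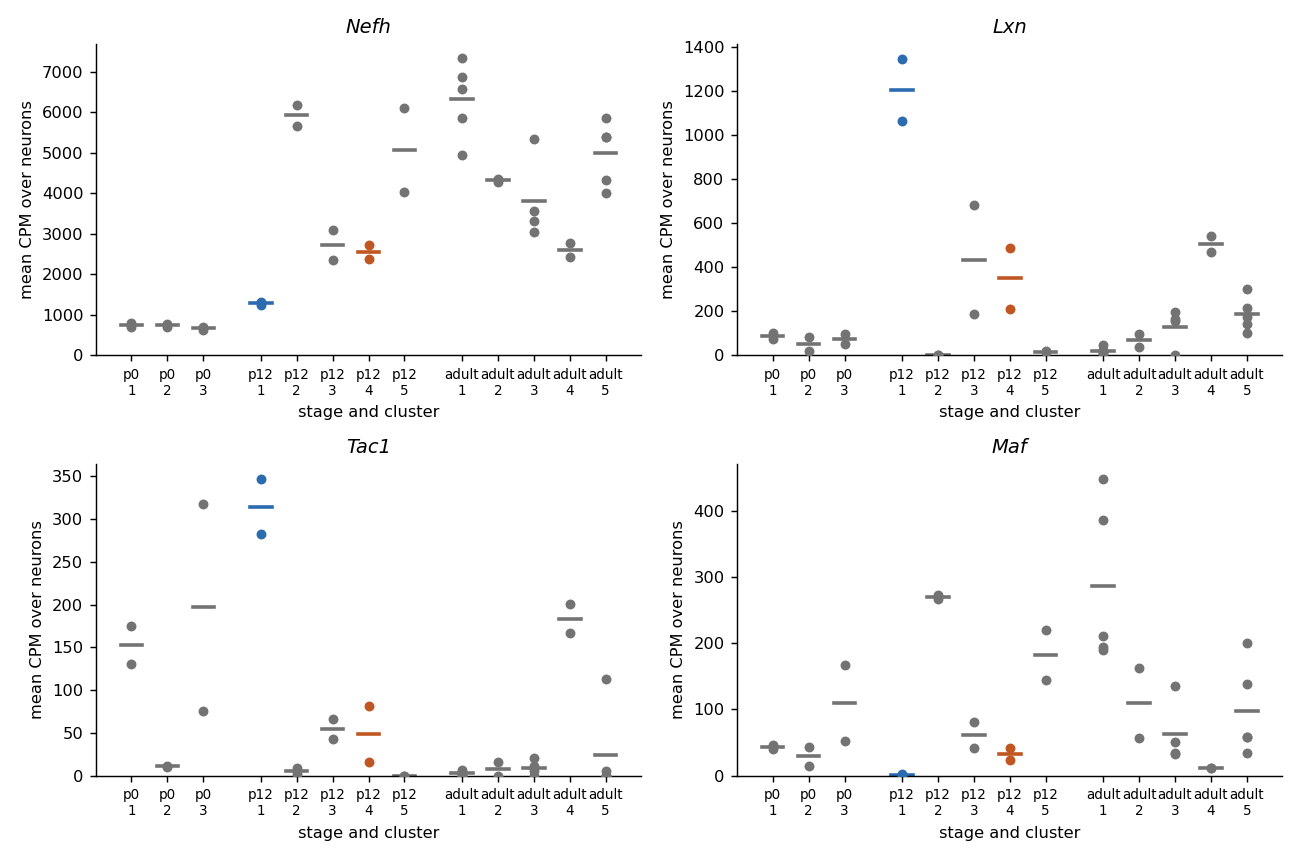
Mean CPM of Nefh, Lxn, Tac1 and Maf in each cluster at p0, p12 and in the adult, with 1 point per plate and the mean over plates as a line; p12 cluster 1 is blue and p12 cluster 4 orange. P12 cluster 1 has the highest Tac1 and Lxn means and the lowest Nefh and Maf means of the p12 clusters.

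The adult plates are other libraries, in which the p12 gene sets were read side by side. Adult clusters 2 to 4, the presumed group II neurons, were set against clusters 1 and 5, assigned by the study to groups Ia and Ib, within each of 5 plates on the log2(CPM + 5) scale. Of the 199 genes higher in p12 cluster 1, 154 (77.4%) were higher on average in adult clusters 2 to 4, beside 46.9% of all 6525 genes. Of the 144 genes higher in p12 cluster 4, 92 (63.9%) were lower there, beside 53.1% of all. The median difference of the first set was 0.56, 0.26, 0.15, 0.17 and 0.08 on the 5 adult plates and that of the second -0.31, -0.11, -0.12, -0.07 and 0.01. Adult clusters 2 and 4 were present on replicates 1 and 2 alone, and replicates 3 to 5 held only cluster 3 of the 3, so that cluster and plate cannot be told apart across these 5 values. These are descriptions without a test.

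Neurofilament genes shared this direction on every adult plate. The mean difference (adult clusters 2 to 4 minus 1 and 5) was -0.73 ± 0.22 (SD, n = 5) for *Nefh*, -0.90 ± 0.32 for *Nefl* and -0.56 ± 0.21 for *Nefm*. It was 1.22 ± 0.39 for *Lxn* and 0.70 ± 0.27 for *Syt1*, both above 0 on every plate, but 1.46 ± 2.11 for *Tac1*, which was below 0 on replicate 5. *Ina* (1.82 ± 0.46) and *Tuba8* (2.43 ± 0.61) went the other way from p12, being higher in p12 cluster 4 and in adult clusters 2 to 4, and *Scn9a* (-0.11 ± 0.33) and *Kcnc1* (-0.03 ± 0.20) showed no direction beyond their spread. For *Kcnc1* this contrast pools unlike clusters, with 133 ± 24.8 CPM in adult cluster 4, below every other adult cluster mean. Depth again moved with the contrast, with 49492 to 72058 UMIs per neuron in adult clusters 1 and 5 and 23425 to 45101 in clusters 2 to 4 over the 5 plates, and its part was not tested.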

How the data were processed

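Single neurons were sorted into 96-well plates and sequenced by Plate-seq. The authors aligned reads to mm10 (GRCm38) with STAR, collapsed them by UMI and deposited UMI counts per gene and well, without normalization, with an annotation that gives each kept neuron's plate and cluster. Each plate took its stage from its sample label, and every column could be mapped.

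Counts of the neurons of cluster 1 or 4 were summed per plate, giving sums of 357826 to 1233182 UMIs, and tested by edgeR's quasi-likelihood method (version 4.0.16, R 4.3.3). Genes were kept by filterByExpr, library sizes scaled by TMM and the plate was a block, which leaves 1 residual degree of freedom. Calls have a Benjamini-Hochberg adjusted p under 0.05 over all genes tested. A log2 difference is cluster 4 minus cluster 1, and its SE is its size divided by the root of F. CPM of the sums uses all their UMIs. The plates pair the sums since both clusters came from the same 2 libraries. Across 6525 genes the plate deviations of both clusters correlated at 0.12. Of the 96 well barcodes shared by the plates, 38 held a neuron of either cluster on both, with no identical counts.

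Named are the 12 genes of largest difference in each direction among calls with a UMI in at least 20% of the higher cluster's neurons on each plate (predicted genes skipped), all members of the first 4 of 21 gene lists (identity, and adult Ia, II and Ib markers), and up to 6 called members of each other list. The members and lists were chosen with earlier results of these data known, and *Lxn* after its values were seen. Gene positions come from RefSeq on GRCm38.p6. Alternatives were DESeq2 1.42.0, its size factors in edgeR, no filter, no block, sums of all p12 clusters, thinning to 10000 or 5000 UMIs, and each plate left out. A further pair was added after seeing the data, neurons of 18000 to 28000 UMIs and neurons without an *Apoe* UMI. Tested on simulated counts (6211 genes), the fit recovered 60% of changes of 1 and 95% of changes of 2 on the log2 scale, with 6.63% of calls false. These counts held no plate effect, took their spread from the same sums and placed the changes on random genes. The clusters were drawn on the expression of these neurons, so the false share of the simulation does not describe the calls reported here. Tables used pandas 2.3.3 and scipy 1.17.1, and figures matplotlib 3.10.9, under Python 3.11.15. Doublets were left as the authors' annotation has them. The clustering was not repeated here. Some members of the gene lists are not reported here by name.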

Additional observations from a re-analysis of the deposited data

Results flagged for a closer look

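Beyond the p12 comparison, 18 adult levels (6 genes by cluster, on 4 or 5 plates) were screened for 1 plate far from the others, and 3 were found. The screening rule was set to flag about 1 in 20 of such levels by chance. *Maf* in adult cluster 3 was 136 CPM on replicate 2 and at most 50.1 CPM on the other 3 plates. *Nefl* in the same cluster and on the same plate was 6786 CPM, with 3623 CPM as the next value. Both values rest on the same 2 neurons and are not separate draws. *Tac1* in adult cluster 5 was 113 CPM on replicate 5, from 3 neurons, and at most 5.64 CPM on the other 4 plates.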

How the results depend on the processing

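The number of calls depended strongly on the setting. Beside 343 calls (144 higher in cluster 4, 199 higher in cluster 1), DESeq2 gave 25 (9 and 16), no replicate block 147 (61 and 86), all p12 cluster sums in the fit 186 (78 and 108), thinning to 10000 UMIs 193 (76 and 117) and thinning to 5000 UMIs 75 (31 and 44). The depth window gave 30 (11 and 19), of which 27 were among the 343, and neurons without an *Apoe* UMI 111 (49 and 62). Leaving out a plate gave 31 (without replicate 4) to 64 calls (without replicate 3), 16 to 28 higher in cluster 4 and 15 to 36 higher in cluster 1. The single cluster sums left were then assumed to vary like those of the other p12 clusters, from which the spread came. DESeq2's size factors gave 281 and no filter on low counts 294 (154 and 140). Several of these also had fewer genes or neurons to test (3336 genes in the depth window, 2514 after thinning to 5000 UMIs), and the cause of the other drops was not tested. The blocked fit is the one reported, since the plate is shared, and dropping the block ended the calls of 31 of the 65 named called genes. Directions changed less often, but all 343 calls had the same direction on both plates, so leaving out a plate could hardly reverse them. The other alternatives reuse the same counts. Of those 65 genes, 64 kept their sign in every alternative that gave a value, and *Atp5o* reversed, to 0.046 (adjusted p = 0.935), in the depth window. Of the 343 calls, 291 were tested in the depth window and 278 of these kept their sign. After thinning to 10000 and 5000 UMIs 314 of 315 and 257 of 259 did. Under thinning to 10000 UMIs 34 of 51 named calls held, without replicate 3 20 of 62 and without replicate 4 13 of 65. After thinning and without the filter, the fit gave all genes the same prior spread, and it did so nearly in the depth window and without replicate 3 (prior degrees of freedom 180 and 984, beside 13.1), so p-values under these settings are small for well-counted genes. The ratio of depths was 1.85 by medians and 1.94 by means, and the ratio of genes detected was 1.36 at own depth and 1.01 after either thinning.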
